A study of Homo sapiens with 79 samples.

Results

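CHD1 fRIP was compared with input RNA in K562 cells, an established human erythroleukemia line. Formaldehyde RNA immunoprecipitation (fRIP) lightly cross-links RNA to protein in living cells, pulls down 1 protein with an antibody and sequences the RNA that comes with it, while input RNA is purified from the same kind of lysate before the antibody is added. The members were the 3 libraries labelled chd1, numbered 1 to 3, and the 3 libraries labelled input2 with the same numbers, which make 6 of the 79 libraries of the series. The series holds 70 fRIP libraries and 9 input libraries in 3 input sets, and set 2 was taken because its mean is nearest to the input column deposited beside CHD1 fRIP. The root mean square log2 distance to that column was 0.0987 for set 2, 0.434 for set 3 and 0.517 for set 1, over 16434 genes. Both groups came from untreated K562 cells cross-linked in 0.1% formaldehyde, and the immunoprecipitation used a CHD1 antibody (Cell Signaling), so that the presence of the antibody and the beads is the only labelled difference. The fRIP replicates were separate lysates collected on different dates. No immunoprecipitation with a nonspecific antibody was used here as a control, so capture by CHD1 and capture by beads or antibody cannot be told apart from this comparison alone.

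CHD1 is an ATP-dependent chromatin remodeler that spaces nucleosomes over transcribed genes. Its paired chromodomains bind histone H3 trimethylated at lysine 4 (H3K4me3), the mark of active promoters, and it travels with elongating RNA polymerase II. It has no classical RNA binding domain. RNA captured with it may therefore be bound by CHD1 itself, by a partner protein, or may lie close to it on chromatin, and fRIP does not separate these.

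The values were FPKM as the authors estimated them, that is, fragments divided by transcript length and by the number of mapped fragments of the library. Each log2 change is a difference of log2(FPKM + 1), which understates the change of low genes. Of 48453 genes in the table, 17416 reached 1 FPKM in at least 2 of the 6 libraries and were tested. A gene was called enriched or depleted in CHD1 fRIP at an adjusted p under 0.05 in limma with a log2 change beyond 1 in size. In this fit all 79 libraries shared the estimate of spread. Its SE and p-values therefore do not measure the spread of the 3 pairs alone. Where n = 3 pairs is printed, it names the libraries compared. The lowest FPKM values gave approximate depths of 15740000, 16380000 and 13630000 fragments for CHD1 fRIP libraries 1 to 3 and 31060000, 29730000 and 27770000 for the inputs, so that low genes were measured more precisely in input than in fRIP. All 10 erythroleukemia markers examined, GATA1, TAL1, KLF1 and the fetal globins among them, were detected in all 6 libraries and none was called. Among markers of other lineages, 7 stayed under 1 FPKM in the 6 libraries, and LYZ, EPCAM and CD3D were at like levels in fRIP and input and were not called.

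CHD1 fRIP held a small set of enriched RNAs and a larger set of depleted ones. There were 67 enriched genes (0.385% of those tested) and 135 depleted genes (0.775%). Among the enriched genes were the mRNA of CHD1 itself, the Cajal body RNAs SCARNA2 and SCARNA10 and the telomerase RNA TERC. Among the depleted genes were all 13 mRNAs of the mitochondrial genome, 11 mRNAs of cytosolic ribosomal proteins, and the cytoplasmic RNA RN7SL1. By annotated class, 34 of 11420 mRNAs were enriched and 39 depleted, 18 of 2685 lncRNAs were enriched and 22 depleted, and 8 of 2545 pseudogenes were enriched and 62 depleted. Without replicate 3, 20 mRNAs, 6 lncRNAs and 4 pseudogenes were enriched. Leaving out 1 pair left 29 to 32 depleted pseudogenes, and all 9 inputs gave 142. All 3 pairs went one way with no overlap between the groups for 64 of the 67 enriched and 133 of the 135 depleted genes. The CHD1 libraries lay above input without overlap for 15.3% of all tested genes and below it for 12.3%. The median change over all tested genes was 0.06, and centring each library on its median gave 45 enriched and 202 depleted genes. Against all 9 input libraries, 46 of the 67 enriched and 111 of the 135 depleted genes were called again in the same direction. Without replicate 3, the number of enriched genes fell to 33.

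**Figure D1:**
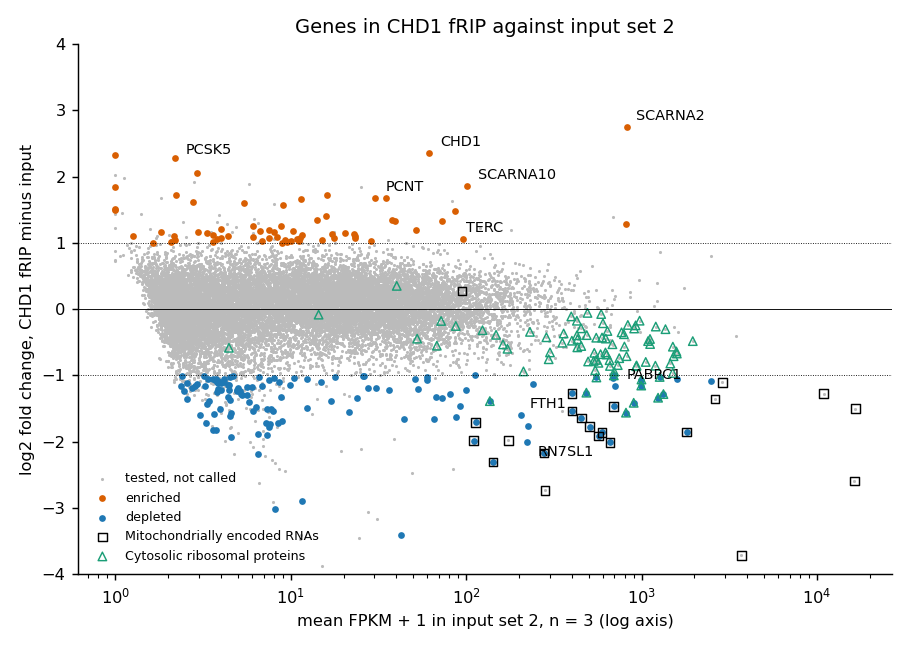
Log2 fold change on the log2(FPKM + 1) scale (CHD1 fRIP minus input set 2, vertical axis) against the mean FPKM + 1 of the 3 inputs (log axis) for the 17416 tested genes; orange and blue dots are called enriched and depleted, squares are mitochondrially encoded RNAs and triangles cytosolic ribosomal protein genes. The mitochondrial and ribosomal protein genes sit to the lower right and SCARNA2 and CHD1 at the top, while 13 genes below −4 and 2 above 4 lie outside the axis.

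The mRNA of the precipitated protein itself was strongly enriched. CHD1 (ENSG00000153922, hg19 chr5:98189689-98264711, minus strand) had 308, 236 and 416 FPKM in CHD1 fRIP libraries 1 to 3, and 50.0, 60.6 and 71.4 FPKM in the inputs. The lowest fRIP library was above the highest of the inputs, and the ratio of the means was 5.28. The log2 change was 2.36 ± 0.17 (SE, n = 3 pairs; adjusted p = 2.83e-15, limma), and leaving out any pair left the call in place. Fitted on the 6 libraries alone, the adjusted p was 0.00082 (limma). Over the 9 inputs of the series CHD1 mRNA lay between 50.0 and 71.4 FPKM. In the fRIP libraries of the other proteins its group mean ranged from 23.5 FPKM in PABP fRIP to 221 FPKM in SUZ12 fRIP, where the libraries had 188, 213 and 261 FPKM. The 8 other CHD family members that could be tested, from CHD2 to CHD9 and the CHD1-like remodeler CHD1L, were not called, with log2 changes from −0.14 for CHD7 to 0.42 for CHD4.

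The enrichment differed between the annotated isoforms of CHD1. Several annotated CHD1 isoforms are short transcripts that begin deep in the gene and cover only its last exons. The 7 isoforms that start more than 50 kb from the 5′ end of the gene held 54.5, 47.5 and 51.8% of CHD1 FPKM in the fRIP libraries and 36.2, 34.6 and 33.6% in the inputs. The highest input share was below the lowest fRIP share. Of these short isoforms, ENST00000512844 joins exon 32 directly to exon 34 of 37, and ENST00000505657 joins exon 33 directly to exon 35, so that each skips an exon of the full-length transcript. Both are annotated as targets of nonsense-mediated decay, the pathway that degrades mRNAs with a premature stop codon. The spliced exons on each side of both junctions are printed from the hg19 reference in transcript sense, to show the joins. Capitals mark the 10 bases on each side of the join.
ENST00000512844, exon 32 to 34, chr5:98195676-98204243 (minus strand): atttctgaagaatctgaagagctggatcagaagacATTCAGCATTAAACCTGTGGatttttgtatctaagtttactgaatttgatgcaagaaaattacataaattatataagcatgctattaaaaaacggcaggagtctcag
ENST00000505657, exon 33 to 35, chr5:98194668-98199290 (minus strand): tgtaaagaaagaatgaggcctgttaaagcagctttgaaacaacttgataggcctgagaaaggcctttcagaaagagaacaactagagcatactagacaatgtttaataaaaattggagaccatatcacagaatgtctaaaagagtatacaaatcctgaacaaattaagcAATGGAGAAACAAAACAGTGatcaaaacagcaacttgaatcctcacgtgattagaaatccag

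ENST00000512844 was estimated at 66.4, 42.7 and 80.2 FPKM in CHD1 fRIP and at 0.31, 0.53 and about 0 FPKM in input. This gave a log2 change of 5.62 ± 0.34 (SE, n = 3 pairs; limma adjusted p = 1.91e-18). Its highest value in any library other than those of CHD1 fRIP was 13.1 FPKM, in IMP1 fRIP library 3. ENST00000505657 had 15.1, 4.08 and 19.4 FPKM in fRIP and at most 0.42 FPKM in input, a log2 change of 3.26 ± 0.35. ENST00000514344, annotated as a retained intron transcript of 9 exons in the last part of the gene, which also leaves out an exon of the full-length transcript, had 76.3, 54.7 and 93.6 FPKM in fRIP and 9.34, 10.5 and 11.6 FPKM in input, a log2 change of 2.70 ± 0.22. The full-length ENST00000511067, which has 37 exons, rose from 0.92, 2.18 and 1.81 FPKM to 9.97, 6.16 and 12.2 FPKM, and the most abundant isoform, ENST00000284049, rose from a mean of 33.9 to 139 FPKM. In these 5 isoforms every fRIP library was above every input. Of the remaining isoforms 5 were tested and not called, with log2 changes from −0.20 to 0.58. Of these, ENST00000508756, ENST00000513064, ENST00000512392 and ENST00000414220 lie within the same last part of the gene. The enrichment was therefore not a trait of all isoforms there.

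The SUZ12 and WDR5 fRIP libraries, picked out after their values were seen, had other patterns over the same isoforms. SUZ12 fRIP had 109, 125 and 154 FPKM of ENST00000284049 but at most 0.11 FPKM of ENST00000512844, and 26.9, 29.5 and 31.3 FPKM of ENST00000505982, which in CHD1 fRIP was at 4.70, 5.52 and 8.78 FPKM. WDR5 fRIP had 36.4, 37.5 and 53.9 FPKM of ENST00000514344 and at most 1.49 FPKM of ENST00000512844. The differences between proteins in single isoforms were not tested. Overlapping isoforms share reads, so each of these values is an estimate of how reads divide, and a change in one transcript can move the estimate of another.

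**Figure D2:**
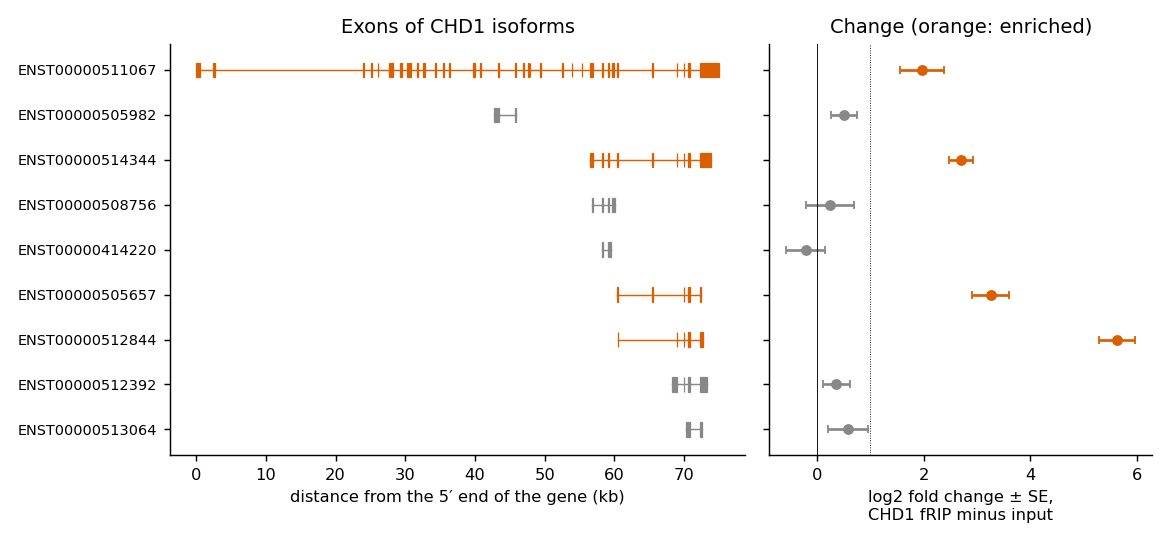
Exons of 9 tested CHD1 isoforms with a match in the annotation, by distance from the 5′ end of the gene in kb (left). The log2 fold change of each is shown with its SE from the fit over all 79 libraries (right), and orange marks isoforms called enriched. The 3 orange short isoforms lie in the last part of the gene and have the 3 highest values, 2.70, 3.26 and 5.62.

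SCARNA2, a small nuclear RNA of the Cajal body, had the highest FPKM of the enriched genes in CHD1 fRIP, and SCARNA10 and TERC were enriched with it. Cajal bodies are nuclear structures where spliceosomal RNAs are modified and the telomerase RNA is assembled, and the scaRNAs that reside there guide these modifications. SCARNA2 (ENSG00000270066, chr1:109642815-109643241, plus strand), a guide of the box C/D kind, had 7042, 5693 and 4054 FPKM in CHD1 fRIP and 840, 927 and 692 FPKM in input. The lowest fRIP library was far above the highest input. The ratio of means was 6.83, with a log2 change of 2.74 ± 0.22 (SE, n = 3 pairs; limma adjusted p = 5.12e-14). SCARNA10, a guide with both box C/D and box H/ACA domains, had 411, 390 and 301 FPKM against 115, 98.9 and 88.3 FPKM, a log2 change of 1.85 ± 0.34. TERC (ENSG00000270141, chr3:169482308-169482848, minus strand), the template RNA of telomerase, had 300, 247 and 191 FPKM against 90.2, 90.2 and 77.3 FPKM, a log2 change of 1.48 ± 0.23. In all 3 RNAs the groups did not overlap and the highest fRIP value was in library 1.

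Stretches of SCARNA2 and TERC are printed from the hg19 annotation, with matching letters in capitals. In the first these are the letters of a box C and each CTGA, the letters of box D, after it. In the second they are the telomere template. Which of the marked letters work as boxes was not tested.
SCARNA2, bases 309 to 427 of 427, chr1:109643123-109643241 (plus strand): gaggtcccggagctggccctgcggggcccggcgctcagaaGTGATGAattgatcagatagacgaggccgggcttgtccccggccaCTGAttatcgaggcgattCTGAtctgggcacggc
TERC, bases 1 to 120 of 541, chr3:169482729-169482848 (minus strand): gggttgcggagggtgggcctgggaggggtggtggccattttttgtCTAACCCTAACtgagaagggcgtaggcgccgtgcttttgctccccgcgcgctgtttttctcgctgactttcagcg
Among 13042 annotated lncRNA transcripts of 300 to 600 bases, 781 (5.99%) held ATGATGA or GTGATGA followed by CTGA on the transcript strand, so these short letters are common by themselves, and 1 (0.00767%) held CTAACCCTAAC.

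The other small nucleolar and Cajal body RNAs were not called. Of 30 in the list 13 could be tested, and SCARNA2 and SCARNA10 were the 2 called, beside 0.385% enriched over all tested genes (median log2 change 0.23, against 0.06 for all tested genes). Of the 13, 6 were higher in all 3 pairs and 1 was lower. SCARNA9 had 149, 102 and 75.0 FPKM against 64.2, 51.4 and 48.6 FPKM, with a log2 change of 0.93 that missed the threshold (adjusted p = 0.064, limma). SNORA71A and SCARNA22 had log2 changes of 0.70 and 0.89 with adjusted p-values of 0.45 and 0.78. Among 27 tested host genes, whose introns give rise to snoRNAs, RP11-1094M14.11 was the 1 enriched and SNHG6 the 1 depleted, beside 0.385 and 0.775% of all tested genes. RP11-1094M14.11 had 39.9, 50.4 and 66.5 FPKM in fRIP and 12.1, 14.9 and 18.1 FPKM in input, a log2 change of 1.72 ± 0.19. SNHG6, whose spliced RNA begins with the terminal oligopyrimidine tract of translated growth-regulated mRNAs, fell from 250, 218 and 254 to 106, 104 and 118 FPKM.

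The enriched mRNAs coded for proteins with diverse functions and had a median of 8.39 FPKM in input, against 16.9 FPKM for all tested mRNAs. PCNT, which encodes the centrosome scaffold pericentrin, had 113, 83.8 and 90.3 FPKM in CHD1 fRIP and 26.8, 32.9 and 27.5 FPKM in input, a log2 change of 1.68 ± 0.17 (SE, n = 3 pairs; adjusted p = 7.31e-10, limma). JUN, an immediate early gene and subunit of the AP-1 transcription factor, had 38.7, 47.7 and 20.9 FPKM against 12.9, 12.3 and 6.17 FPKM, a log2 change of 1.66 ± 0.34. Library 3 was the lowest for JUN in both groups, so that the 3 pair differences were alike at 1.52, 1.87 and 1.61. GPBP1, a promoter-binding protein, had 168, 169 and 206 FPKM against 69.9, 69.3 and 74.8 FPKM (log2 change 1.32 ± 0.12). RBBP6, a ubiquitin ligase and part of the machinery of 3′ end processing, had 82.3, 87.9 and 125 FPKM against 36.6, 36.9 and 40.9 FPKM (log2 change 1.32 ± 0.13). For these 4 mRNAs the fRIP libraries lay above all inputs.

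Isoforms of the same mRNA could differ. In RBBP6 the retained intron transcript ENST00000568316, of 2 exons, had 37.3, 37.8 and 61.3 FPKM in fRIP and 10.2, 11.2 and 13.1 FPKM in input, a log2 change of 1.86 ± 0.26. The 18-exon RBBP6 transcript ENST00000319715 had 11.4, 11.5 and 15.9 FPKM against 10.4, 9.06 and 11.6 FPKM and was not called (log2 change 0.29, adjusted p = 0.36, limma), while the short coding isoforms ENST00000452655 and ENST00000568015 were, with log2 changes of 1.05 and 1.78. A further short coding isoform, ENST00000562683, was not called (log2 change 1.37, adjusted p = 0.059). In GPBP1 4 of 5 isoforms examined were enriched, with log2 changes from 1.07 to 2.06. In PCNT the long 47-exon transcript ENST00000359568 was enriched, with a log2 change of 2.17 ± 0.18. PCSK5, a proprotein convertase, was nearly all 1 isoform, ENST00000376767, which is annotated as a retained intron transcript. PCSK5 had 10.3, 7.25 and 11.8 FPKM in fRIP and 1.23, 1.17 and 1.14 FPKM in input (log2 change 2.28 ± 0.49). ANKRD30BL rose from 30.8, 39.7 and 31.4 to 97.3, 117 and 116 FPKM, with the same values for ENST00000470729, annotated as a transcript without a defined coding sequence. The readthrough transcript RP11-637O19.3 had 2.24, 2.51 and 1.01 FPKM in fRIP and was listed at values near 0 in the 3 inputs.

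**Figure D3:**
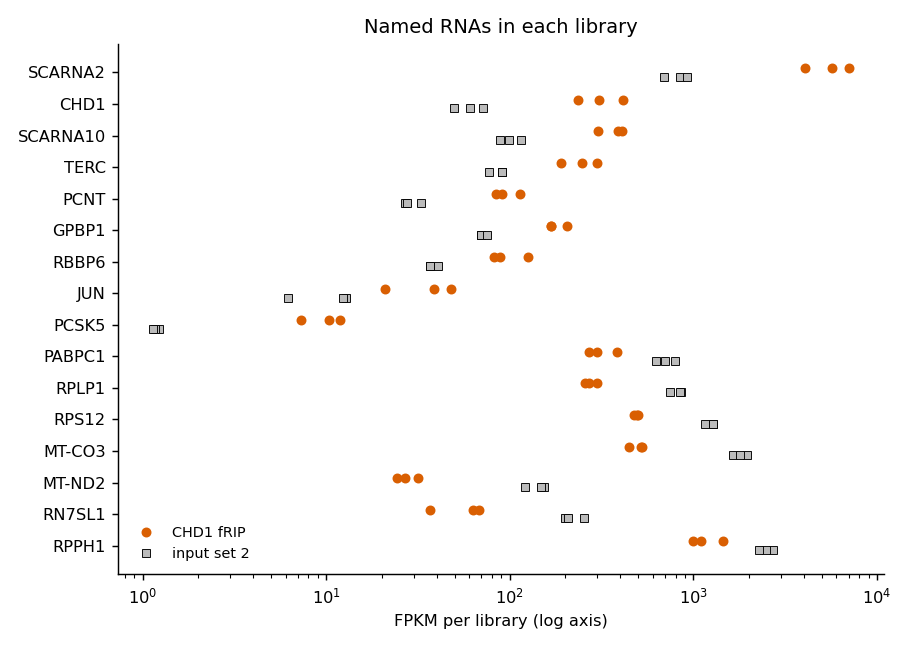
FPKM of 16 named RNAs in each library (log axis), orange circles for the 3 CHD1 fRIP libraries and grey squares for the 3 input set 2 libraries. The groups do not overlap in any of the 16 RNAs, with SCARNA2 the highest enriched RNA and MT-ND2 and RN7SL1 among those furthest to the left of their inputs.

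The 18 enriched lncRNAs were 0.670% of those tested, against 0.385% of all tested genes. CTA-29F11.1 had 19.1, 26.7 and 32.1 FPKM against 6.05, 9.61 and 8.52 FPKM (log2 change 1.57 ± 0.23). RP1-39G22.7 had 43.7, 41.8 and 32.6 FPKM against 18.5, 17.5 and 8.67 FPKM (log2 change 1.40 ± 0.22). Of 597 tested antisense lncRNAs 3 were enriched, MAPKAPK5-AS1 (log2 change 1.34), RP11-152N13.5 (1.12) and AC002467.7 (1.08), and 2 were depleted, beside 0.385 and 0.775% of all tested genes, so that the class as a whole was near the background. Of 246 tested lncRNAs with a LINC name in the deposited table or in the later annotation 2 were enriched, RP11-734I18.1 with 21.2, 22.9 and 22.4 FPKM against 11.2, 8.90 and 7.77 FPKM and LINC00847 with 18.1, 15.9 and 15.3 FPKM against 8.28, 8.91 and 5.00 FPKM. Whether the reads were counted by strand is not given in the sources used here, so an antisense lncRNA and its partner gene may share reads. The calls of MAPKAPK5-AS1, RP11-152N13.5, AC002467.7 and LINC00847 were lost without replicate 3, with log2 changes of 1.08, 0.86, 0.94 and 0.91. AC002467.7 also lost its call without replicate 1 (limma adjusted p = 0.053). Against all 9 inputs the changes of RP11-734I18.1 and LINC00847 were 0.99 and 0.88, below the size set for a call. Outside these classes, among enriched genes whose groups did not overlap, those with the largest changes were the pseudogene PVRIG2P (3.04, 7.15 and 2.86 FPKM, and at most 0.0044 FPKM in input) and AC004917.1, which had no match in the annotation (11.0, 11.0 and 9.64 FPKM against 0.70, 2.12 and 2.97 FPKM). PVRIG2P and the readthrough RP11-637O19.3 lost the call without replicate 2 (limma adjusted p = 0.10 and 0.056), and AC004917.1 lost it without replicate 1 or without replicate 2 (adjusted p = 0.16 and 0.067). With a pseudocount of 0.1 AC004917.1 and AC002467.7 were not called (adjusted p = 0.22 and 0.085). The immunoglobulin pseudogene IGHVIII-38-1, named after its values were seen, had the largest fitted log2 change (6.89) but was listed at 1368, 1217 and 0 FPKM in fRIP and at 0 in the 3 inputs, so that the groups overlapped in library 3.

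In a list of well known nuclear and regulatory lncRNAs, some of which act in the cytoplasm, TERC was the 1 enriched. MALAT1, which resides in nuclear speckles, had 2782, 2400 and 2583 FPKM in fRIP and 3717, 3355 and 3230 FPKM in input, and NEAT1, the scaffold of paraspeckles, had 64.8, 59.4 and 38.6 FPKM against 75.5, 84.7 and 50.8 FPKM. Neither difference passed the test (adjusted p = 0.91 and 0.40, limma). Of 17 tested genes in this list 1 was enriched and none depleted (0.385 and 0.775% over all tested genes), with a median log2 change of −0.30, and 10 were lower in all 3 pairs. Of these CASC7 (−0.99), OIP5-AS1 (−0.66) and LINC00657 (−0.46) were lower at an adjusted p under 0.05 without reaching the size set for a call. The depleted lncRNAs with the largest changes were RP11-968A15.8 (−1.48), CTD-2510F5.4 (−1.34), RP13-820C6.2 (−1.33), CDC42-IT1 (−1.30) and RP11-307P5.1 (−1.28). RP11-307P5.1 was the most abundant of these, at 37.4, 30.2 and 29.5 FPKM against 84.6, 71.1 and 83.5 FPKM, while the antisense lncRNA CTD-2024I7.13 fell from 5.80, 6.54 and 7.13 to 2.28, 2.30 and 3.20 FPKM.

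The most uniform depletion was of mRNAs made inside mitochondria. These mRNAs code for subunits of the respiratory chain and of ATP synthase. All 13 were depleted, with log2 changes from −2.31 for MT-ND2 to −1.27 for MT-ND5. MT-ND2 had 31.7, 24.3 and 26.9 FPKM in CHD1 fRIP and 153, 122 and 149 FPKM in input, a log2 change of −2.31 ± 0.28 (SE, n = 3 pairs; limma adjusted p = 4.49e-08). Fitted on the 6 libraries alone, the adjusted p of MT-ND2 was 8.8e-05 (limma). MT-CO3 had 526, 446 and 518 FPKM against 1970, 1646 and 1792 FPKM, a log2 change of −1.86 ± 0.24. MT-ATP6 (−2.17), MT-ND4L (−2.01), MT-ND1 (−1.99), MT-ND4 (−1.92), MT-ATP8 (−1.86) and MT-ND3 (−1.78) fell to a like extent. Together the 13 mRNAs made up 0.47, 0.38 and 0.46% of the FPKM of all tested mRNAs in fRIP and 1.60, 1.38 and 1.48% in input. The background share of depleted genes was 0.775%. Mitochondrial tRNAs varied widely between libraries, and MT-TI and MT-TL1 were called depleted but were listed at 0 in all 3 fRIP libraries and lost the call whenever 1 pair was left out. The 80 tested nuclear-encoded subunits of the respiratory chain, whose mRNAs are made in the nucleus, had no call and a median log2 change of −0.16, with 52 lower and 20 higher in all 3 pairs.

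Cytosolic ribosomal protein mRNAs, among the most abundant and most translated mRNAs of the cell, were also depleted. Of 84 tested, 11 were called depleted and none enriched (0.775 and 0.385% over all tested genes). At an adjusted p under 0.05 (limma), 47 were lower whatever the size of the change, beside 673 of all 17416 tested genes. The median log2 change was −0.57, and 78 of the 84 were lower in all 3 pairs. RPLP1 had 270, 256 and 297 FPKM against 853, 742 and 846 FPKM, a log2 change of −1.56 ± 0.18 (SE, n = 3 pairs; limma adjusted p = 1.93e-08). RPS29 (−1.41), RPS28 (−1.39) and RPS12 (−1.34) followed. Ribosomal protein mRNAs made up 8.15, 7.64 and 8.90% of the FPKM of tested mRNAs in fRIP and 13.2, 11.8 and 13.1% in input. Against all 9 inputs 7 of them were called depleted.

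Other mRNAs of the translation machinery split. Of 62 tested translation factors 3 were depleted (0.775% over all tested genes), and the median of the list was 0.01. PABPC1, the cytoplasmic poly(A) binding protein, had 297, 272 and 385 FPKM in fRIP and 704, 629 and 791 FPKM in input (log2 change −1.16 ± 0.12). TPT1 fell from 712, 605 and 742 to 323, 281 and 399 FPKM, and EIF4EBP2, a repressor of cap-dependent translation, from 37.5, 32.5 and 36.3 to 15.2, 13.3 and 15.3 FPKM. PABPC1 and TPT1, like the ribosomal proteins, belong to the mRNAs with a terminal oligopyrimidine tract. TPT1 was just below the size set for a call without replicate 1 and against all 9 inputs, with log2 changes of −0.999 and −0.91. FTH1, the ferritin heavy chain, was noted after its values were seen and fell from 235, 169 and 206 to 83.0, 67.2 and 50.8 FPKM. Among the depleted isoforms 36 were of processed pseudogenes, which are copies of mRNAs (1.89% of 1903 tested, against 0.55% of all isoforms). Reads that match both copy and parent may be divided between them, so the calls of the 62 depleted pseudogenes are uncertain.

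Of 4 tested RNAs made by RNA polymerase III, 3 were lower in CHD1 fRIP in all 3 pairs and 1 was higher. RN7SL1, the RNA of the signal recognition particle that brings nascent secreted proteins to the endoplasmic reticulum, had 63.2, 68.0 and 36.6 FPKM in fRIP and 255, 199 and 208 FPKM in input, a ratio of means of 0.254 and a log2 change of −2.001 (SE 0.31). RPPH1, the nuclear RNA of RNase P that trims tRNA precursors, had 1451, 1102 and 998 FPKM against 2721, 2472 and 2285 FPKM, a log2 change of −1.09 ± 0.22. Against all 9 inputs the change of RPPH1 was −0.95, and that of SNHG6 was −0.97. RMRP, the related RNA of RNase MRP that acts on ribosomal RNA precursors in the nucleolus, had 4683, 5183 and 3340 FPKM against 2506, 2642 and 2314 FPKM. RMRP was higher in all 3 pairs with an adjusted p of 0.0016 (limma), but its log2 change of 0.80 was below the size set for a call. VTRNA2-1, a small RNA related to the vault RNAs, had 0, 0 and 29.4 FPKM in fRIP and 14.9, 26.8 and 48.5 FPKM in input and did not pass the test (log2 change −3.16, adjusted p = 0.27). AC018867.1, without a match in the annotation, was listed at 0 in all 3 fRIP libraries and at 548, 1087 and 630 FPKM in input, and its call was lost against all 9 inputs.

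**Figure D4:**
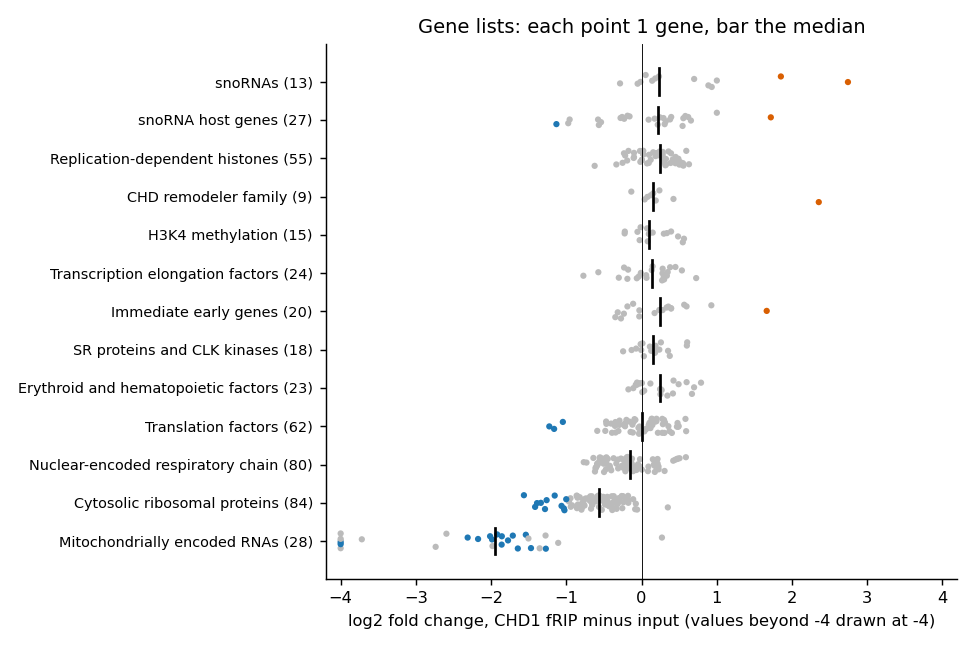
Log2 fold change (CHD1 fRIP minus input set 2) of each tested gene in 13 gene lists, with the number tested in brackets, orange for enriched, blue for depleted and a bar at the median of each list; values beyond −4 are drawn at −4. Mitochondrially encoded RNAs (median −1.95) and cytosolic ribosomal proteins (median −0.57) lie to the left of 0, while the chromatin and transcription lists lie near it.

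Genes for the chromatin and transcription machinery around CHD1 showed small changes. None of 15 tested genes for H3K4 methylation and its removal was called, although KDM5C, which demethylates H3K4, and CXXC1, which brings the methyltransferase to CpG islands, were higher at log2 changes of 0.56 and 0.55 (adjusted p = 0.012 and 0.032, limma). None of 24 elongation factors was called. HEXIM1, the inhibitor of the elongation kinase P-TEFb, rose from 4.80, 5.48 and 6.01 to 8.17, 9.73 and 11.1 FPKM (log2 change 0.73, adjusted p = 0.0005), and its target kinase CDK9 rose by a log2 change of 0.45 (adjusted p = 0.048), while ELL2 fell by 0.77 on the log2 scale (adjusted p = 0.0021). Of 12 subunits of RNA polymerase II, POLR2B was higher (0.58, adjusted p = 0.001) and POLR2J lower (−0.70, adjusted p = 0.035), and none was called. No call was made among 25 other chromatin remodelers, 55 replication-dependent histone genes, 38 proteasome genes, 187 zinc finger genes of chromosome 19, 22 hnRNP genes or 28 nucleoporin genes, and the medians of these lists were 0.07, 0.25, 0.22, 0.18, 0.19 and 0.18. With 0.385 and 0.775% called over all tested genes, lists of this size hold few calls by their size alone. Of 20 tested immediate early genes JUN was the 1 enriched (0.385% over all tested genes), while CCNL1 and IER5 were higher at log2 changes of 0.57 and 0.60 (adjusted p = 0.029 and 0.023), with FOS at a log2 change of 0.93 (adjusted p = 0.38) and EGR1 at −0.19 (adjusted p = 0.91).

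Calls were also made in the isoform table. Of 58857 isoforms tested, 795 were enriched (1.35%) and 324 depleted (0.55%), and the enriched isoforms came from 710 genes, of which 48 were also called as genes. Of the 795, 445 averaged below 1 FPKM in input, where the estimates are least certain. The split depended on the scale, since 526 were enriched and 793 depleted once each library was centred on its median. Leaving out 1 pair gave 314 to 393 enriched and 162 to 174 depleted isoforms, and all 9 inputs gave 1952 and 715. Transcripts annotated as retained introns, which keep an intron and are mostly held in the nucleus, had a median log2 change of 0.21 over 11586 isoforms, against 0.04 over 26450 protein coding isoforms. Of the retained intron transcripts 143 were enriched (1.23%) and 19 depleted (0.164%), and of the protein coding ones 346 were enriched (1.31%) and 151 depleted (0.571%), so that the shares enriched were near that over all isoforms. In 4621 genes with both kinds the median over genes of the share of FPKM in retained intron transcripts was 21.4, 21.3 and 22.9% in fRIP and 18.9, 19.7 and 19.6% in input. The ratio of retained intron to coding FPKM was higher in fRIP in all 3 pairs in 1659 genes and lower in all 3 in 619. In the 15 of these genes that were called enriched it was higher in all 3 pairs in 6 and lower in all 3 in 6. In the 10 called depleted it was higher in all 3 pairs in 9 and lower in all 3 in 0. Their median share in retained intron transcripts was 4.52, 6.83 and 6.83% in fRIP and 2.50, 2.40 and 2.35% in input.

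The fRIP to input ratio of mRNAs followed base composition more than length. Across 11392 mRNAs the Spearman correlation of the log2 ratio was 0.26 ± 0.06 with GC content and 0.15 ± 0.03 with exon number (mean ± SD of 3 pairs). It was −0.11 ± 0.02 with input FPKM and 0.02 ± 0.01 with transcript length. Against the mean of the 3 set 2 inputs the correlation with input FPKM was −0.0896 ± 0.134, and against the mean of all 9 inputs both changed sign, to 0.0132 and −0.0404, while that with exon number was 0.0842 ± 0.0589. These are descriptions across genes, which are not independent replicates. Any bias from GC content, sequencing depth or library preparation is shared by the genes of a library. Over 10 bins of equal size ordered by GC content, the median log2 ratio went from −0.03 in the first to 0.27 in the last, and in all 3 pairs the last bin had the highest ratio. With length the ratio rose and then fell, from −0.07 in the bin of the shortest mRNAs to 0.16 in the fourth and 0.02 in that of the longest. The 34 enriched mRNAs had a median GC content of 57.4% and a median length of 2283 bases, against 48.6% and 2183 bases for all 11392. The 39 depleted mRNAs were short, with a median of 686 bases, and abundant, with a median of 453 FPKM in input against 16.9 FPKM.

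Words of 6 letters were also counted in the most expressed transcript of each mRNA. Each count was divided by the number of positions in that transcript, which gave the frequency of the word. Over 4096 words and 11368 mRNAs, the words whose frequency had the lowest correlations with the ratio were AATAAA, the letters of the polyadenylation signal, and TTTAAA. Their Spearman correlations were −0.20 ± 0.04 and −0.19 ± 0.04 (mean ± SD of 3 pairs). The highest correlations were those of CTGGAG and GAGGCC, both at 0.19 ± 0.03. The 64 words without G or C had a median correlation of −0.15, the 960 words with 4 G or C letters 0.07, the 384 words with 5 such letters 0.10, and the 64 words made of G and C alone 0.08. Words were counted on the transcript strand, and they overlap each other.

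**Figure D5:**
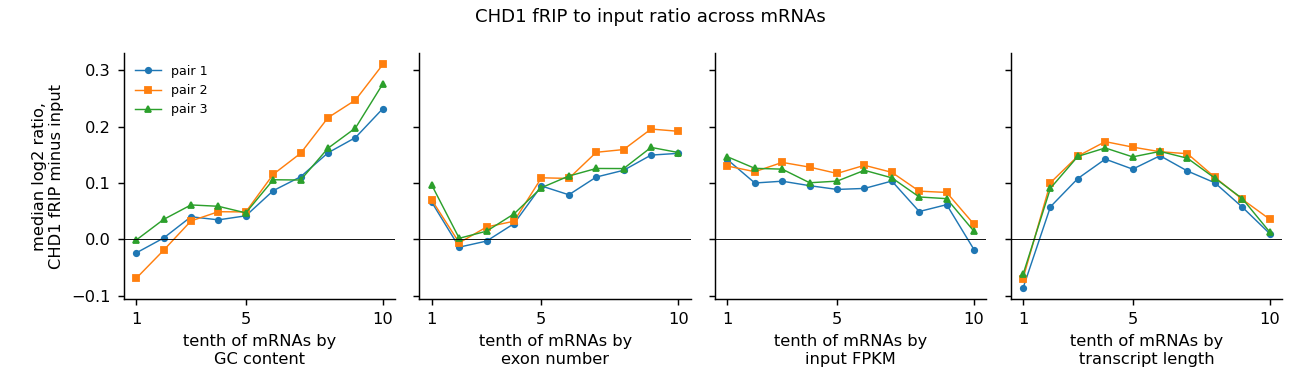
Median log2 ratio of CHD1 fRIP to input (vertical axis) in 10 equal bins of mRNAs ordered by GC content, exon number, input FPKM and transcript length (left to right), with 1 line for each of the 3 pairs. The lines rise with GC content from about −0.03 to 0.27, and for length they rise and then fall.

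WDR5 and RBBP5 are subunits of the complexes that write H3K4 methylation, the mark that CHD1 reads. They were compared with CHD1 fRIP directly, without taking their input into account. In these tests 1158 genes were higher in CHD1 than in WDR5 fRIP (6.91% of 16758) and 825 lower (4.92%). Against RBBP5 fRIP 420 were higher (2.28% of 18392) and 1671 lower (9.09%). Centring each library on its median made the latter counts 648 and 1361. With a pseudocount of 0.1 in place of 1, 2022 genes were higher against WDR5 and 688 against RBBP5 fRIP. Depth was about 23760000, 28900000 and 8330000 fragments in WDR5 fRIP and 6770000, 8330000 and 7390000 in RBBP5 fRIP, and its part in these counts was not tested. CHD1 mRNA was at 74.3, 83.4 and 117 FPKM in WDR5 fRIP and at 105, 95.8 and 146 FPKM in RBBP5 fRIP, below every CHD1 fRIP library. The log2 differences were 1.78 ± 0.18 and 1.45 ± 0.18 (limma adjusted p = 6.41e-12 and 4.12e-09).

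SCARNA2 separated the 3 proteins widely. It was at 331, 301 and 280 FPKM in WDR5 fRIP and at 10430, 9528 and 11538 FPKM in RBBP5 fRIP, above all CHD1 fRIP libraries. The log2 difference of CHD1 from WDR5 fRIP was 4.17 ± 0.22 and that from RBBP5 fRIP was −0.94 ± 0.22 (limma adjusted p = 1.98e-22 and 0.00059). SCARNA10 followed the same order, at 30.6, 22.4 and 30.7 FPKM in WDR5 fRIP and 2844, 3214 and 3060 FPKM in RBBP5 fRIP. TERC was at 24.3, 19.6 and 25.3 FPKM in WDR5 fRIP, lower than CHD1 by a log2 difference of 3.34 ± 0.23, and at 331, 293 and 301 FPKM in RBBP5 fRIP, where the difference of −0.35 ± 0.23 did not pass the test (adjusted p = 0.23). JUN and GPBP1 were at like levels in CHD1 and WDR5 fRIP, with log2 differences of 0.13 ± 0.36 and 0.02 ± 0.12 (adjusted p = 0.81 and 0.90), and were higher in CHD1 than in RBBP5 fRIP by 1.75 and 0.60.

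Of 22 mitochondrially encoded RNAs tested against WDR5 fRIP, 14 were higher in CHD1 fRIP (6.91% over all tested genes), and of 25 tested against RBBP5 fRIP 1 was higher and 1 lower (2.28 and 9.09%). MT-CO3 was at 150, 109 and 169 FPKM in WDR5 fRIP and 665, 665 and 607 FPKM in RBBP5 fRIP, with log2 differences of 1.81 ± 0.24 and −0.38 ± 0.24, of which the second did not pass the test (limma adjusted p = 0.21). Replication-dependent histone mRNAs, made in S phase and lacking a poly(A) tail, were higher in CHD1 fRIP in 18 of 54 against WDR5 (median log2 difference 0.91) and in 27 of 55 against RBBP5 (median 1.00), beside 6.91 and 2.28% of all tested genes, and none was lower. Of 84 ribosomal protein genes none was called against WDR5 fRIP and 1 was higher against RBBP5 fRIP. MEGF9, ERLEC1 and MMD were the mRNAs with the largest deficits against WDR5 fRIP, with log2 differences of −2.37, −2.31 and −2.27.

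CHD7 is another chromodomain remodeler, active at enhancers. The input column deposited beside CHD7 fRIP is nearest to set 3 (distance 0.0541), so the enrichment of each protein over its own input was compared. By this test 95 genes were higher in CHD1 (0.507% of 18733) and 190 lower (1.01%). Leaving out replicate 2 gave 47 and 104, and leaving out replicate 3 gave 37 and 130. CHD1 mRNA was at 73.3, 86.4 and 88.1 FPKM in CHD7 fRIP, and its enrichment was higher in CHD1 fRIP by 1.79 ± 0.25 on the log2 scale (limma adjusted p = 1.88e-06). SCARNA2 (2.04 ± 0.31), SCARNA10 (1.72 ± 0.47), TERC (1.55 ± 0.33) and PCSK5 (3.01 ± 0.68) were more enriched with CHD1 as well. PCNT and ANKRD30BL were enriched to a like degree with both, with differences of 0.21 ± 0.24 and 0.19 ± 0.36 (adjusted p = 0.77 and 0.89). PCNT had 89.7, 90.8 and 66.9 FPKM in CHD7 fRIP. Of the mitochondrially encoded RNAs 3 of 28 were less depleted with CHD1 than with CHD7, and of 57 histone genes 9 were higher. The mRNAs with the largest differences towards CHD7 were NPIPA5, NPIPA1 and PLXND1, at −2.59, −2.47 and −2.40, of which the NPIPA genes are near-identical copies of one another, so that their values are uncertain.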

How the data were processed

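RNA from fRIP and input libraries of K562 cells had been sequenced as paired ends after ribosomal RNA removal. Per the study's methods and processing notes, the authors aligned reads with TopHat to hg19 and estimated FPKM per gene and per isoform of GENCODE v18 with Cuffdiff and Cuffnorm (CASAVA 1.4 is also listed), and the deposited FPKM tables were used. Strand settings, read filters and the scaling between libraries were not stated in the sources used here. Another deposited table holds the authors' fold changes, p-values and q-values. None of these was used, and only its input FPKM, a mean made by the authors, served to find the nearest input set.

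log2(FPKM + 1) was fitted in limma 3.58.1 (R 4.3.3) with an intensity trend and a mean for each of 27 groups over all 79 libraries, with replicate number as a block within CHD1 fRIP and input set 2. The fit kept features that reached 1 FPKM in 2 or more of the 6 libraries compared, p-values were adjusted by Benjamini-Hochberg over all of them, and features past 0.05 after adjustment whose log2 change exceeded 1 in size were called. Same-numbered CHD1 and input libraries deviated together from their group means (r = 0.43, 0.17 and 0.62 for numbers 1 to 3), which is a sign from the data that the numbers pair the libraries, although CHD1 library 2 was slightly closer to input library 1 (r = 0.19). WDR5, RBBP5 and CHD7 fRIP were compared without the block. An exact two-sided permutation test of 3 against 3 libraries cannot go below 0.10, nor one of 3 pairs below 0.25. Depth was estimated from the steps between low FPKM values of genes with 1 isoform, of which 82.8 to 88.0% lay within 0.15 of a whole fragment, and is approximate. Positions, classes, lengths and sequences came from GENCODE v44 lifted to GRCh37 (hg19), which matched 46055 of 48453 genes and 172143 of 185661 isoforms by identifier.

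Named genes were CHD1, then among calls with 3 pairs in one direction and no overlap the 8 mRNAs, 5 lncRNAs and 3 other genes with the largest change each way, and up to 4 called members of each gene list each way. Members and lists were chosen with earlier results of these data known. Scripts were tested on simulated data, and the alternatives are given in the closing section.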

Additional observations from a re-analysis of the deposited data

Results flagged for a closer look

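The difference itself was tested between fRIP of CHD1 and of 3 related proteins, and passed the threshold for CHD1 mRNA in each case. Its log2 difference was 1.78 against WDR5 fRIP, 1.45 against RBBP5 fRIP and 1.79 against CHD7 fRIP, each over its own input in the last case. Over all genes tested, 1158 were higher and 825 lower in CHD1 than in WDR5 fRIP, 420 higher and 1671 lower than in RBBP5 fRIP, and 95 higher and 190 lower than in CHD7 fRIP. Centring each library on its median gave 648 higher genes against RBBP5 fRIP.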

How the results depend on the processing

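CHD1 mRNA stayed enriched under every alternative run. Of 516 values for 47 named genes under the alternatives, 492 stayed on the same side of the threshold, 24 (in 14 genes) did not, and none reversed. Without the replicate block 67 genes were enriched and 132 depleted, and with the block over the libraries compared there were 1158 and 825 calls against WDR5, 421 and 1675 against RBBP5 and 93 and 198 against CHD7 fRIP, so the pairing changed no count of calls by over 1.5 times. Centring on the median took the enriched share of gene calls from 33.2 to 18.2% and of isoform calls from 71.0 to 39.9%, with 526 isoforms enriched and 793 depleted, 19 mRNAs enriched and 38 lncRNAs depleted, and took the higher share against RBBP5 fRIP from 20.1 to 32.3%, with 648 higher. With all 9 inputs there were 115 enriched and 261 depleted genes, 1952 and 715 isoforms, 58 enriched mRNAs, 28 enriched and 54 depleted lncRNAs and 142 depleted pseudogenes. With the 6 libraries alone 224 genes and 120 pseudogenes were depleted and 16 pseudogenes enriched. A pseudocount of 0.5 gave 36 depleted lncRNAs, and one of 0.1 gave 434 enriched isoforms and 2022 and 688 genes higher against WDR5 and RBBP5 fRIP. Leaving out 1 pair gave 33 to 59 enriched and 86 to 95 depleted genes, 314 to 393 and 162 to 174 isoforms, 20 to 31 enriched mRNAs, 6 to 17 enriched lncRNAs, 4 to 6 enriched and 29 to 32 depleted pseudogenes, and 37 to 74 higher and 104 to 152 lower genes against CHD7 fRIP. The lowest enriched counts came without replicate 3. The correlation with input FPKM was −0.139 at a pseudocount of 0.1, −0.140 over mRNAs of at least 5 FPKM and 0.0132 against 9 inputs. That with length was 0.0304 over these mRNAs and −0.0404 against 9 inputs, and that with exon number 0.182 and 0.0842. The causes were not tested, beyond the fewer libraries in the fits that left some out. The CHD1 fRIP libraries were less deep than the inputs, which limits genes near 1 FPKM most.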
